A study of Mus musculus with 21 samples.

Results

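The nuclear genes that encode the subunits of oxidative phosphorylation complexes I to V were followed in hematopoietic stem cells (HSCs) of mouse bone marrow after treatment with 5-fluorouracil (5-FU). Members were all genes whose symbol begins with Nduf followed by the letter a, b, c, s or v and a digit (complex I), is Sdha, Sdhb, Sdhc or Sdhd (complex II), or begins with Uqcr (complex III), with Cox and a digit from 4 to 8 (complex IV) or with Atp5 (complex V). This rule, which used no measured value, gave 86 of the 21000 genes in the count table, with 39 in complex I, 4 in complex II, 8 in complex III, 18 in complex IV and 17 in complex V. Of these, 83 encode structural subunits. The exceptions were Cox7a2l, a factor that joins complexes III and IV into supercomplexes, Ndufa4l2, a paralogue of Ndufa4, and Ndufb4c, a processed copy of Ndufb4. Each gene was assigned to a complex by its symbol alone, which placed Ndufa4 in complex I. Which complex holds its product was not checked. Genes of the mitochondrial genome, which encode the remaining subunits, were not analysed here.

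Complexes I to IV pass electrons from NADH or succinate to oxygen and, with the exception of complex II, pump protons across the inner mitochondrial membrane. Complex V, the ATP synthase, lets the protons flow back and makes ATP. 5-FU kills dividing cells and drives the surviving HSCs into cycle, and the study asked how HSCs make ATP at rest and under such stress.

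RNA was sequenced in 21 libraries of 7 groups with 3 libraries each, all from Wild type C57BL/6 mice. Mice received 5-FU at 150 mg/kg or PBS intraperitoneally from the age of 10 weeks, either once or 3 times at an interval of 21 days, and 3000 to 3500 HSCs were sorted per library as Lineage-Sca-1+c-Kit+ cells with CD150 and without CD48. The study's gate for C57BL/6 mice also leaves out Flt3+ cells, except where EPCR was in the antibody mixture, and which of these was used for each library is not given in the sources used here. The groups were PBS once at day 6 (PBS-1 day 6), 5-FU once at day 6 and at day 21 (5FU-1 day 6, 5FU-1 day 21), PBS given 3 times at day 6 (PBS-3 day 6), 5-FU given 3 times at day 6 and at day 21 (5FU-3 day 6, 5FU-3 day 21), and untreated mice aged 2 years (old). No PBS group was taken at day 21. Early after 5-FU the sorting gate was widened towards c-Kit-dim cells and the Mac-1 antibody was left out of the lineage mixture, so at day 6 the gate differed along with the treatment and their effects on the values cannot be told apart. The study describes the libraries of the groups treated once as biological replicates from pooled samples, and the labels do not say how many mice stand behind each library, so p-values measure the spread between these libraries. In bulk RNA a higher level can come from more RNA of a gene per cell or from more cells that express it, and these cannot be told apart.

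The median library had 26962256 counts (range 22184885 to 38649033), so that 3 counts, taken as the lowest reliable level, corresponded to 0.0776 to 0.135 CPM, the usual depth-scaled unit of counts. CPM values below carry the factors of the trimmed mean of M values (TMM). Of the 86 members, 80 passed the filter on low counts in every comparison. The 6 others were Cox6a2 and Cox8b, the heart and muscle forms of complex IV subunits, with at most 3 and 2 counts in any library, Cox7b2 with at most 2, Ndufa4l2 with at most 1, Cox8c with 0 in all libraries, and Cox7a1, another heart and muscle form, with 0 to 17. For these genes only the forms expressed in most tissues (Cox6a1, Cox7a2, Cox7b, Cox8a and Ndufa4) were measured above the filter. All 86 members could be matched to the GENCODE vM21 annotation of GRCm38.p6, where they lie on 19 chromosomes.

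A property of the deposited counts, found in these data and not part of the planned tests, divided the members. Within groups, the counts of genes with 2 or more curated RefSeq transcripts followed library depth, with a median slope of log2 count on log2 total of 0.989 over 5753 genes with a mean of at least 100 counts. For the 5117 such genes with 1 RefSeq transcript the median slope was 0.709, and it fell from 0.889 below 0.1 counts per base of transcript to 0.296 between 1 and 2 counts per base, with 0.788 for the 30 genes above 2 counts per base. The members included 56 genes with 1 transcript, of which 49 had a mean of at least 100 counts, with a median slope of 0.32 (0.15 to 0.63), and 30 genes with 2 or more, with a median slope of 0.74 (0.21 to 1.36). Over all libraries, the coefficient of variation of the members' counts had a median of 11.5% for genes with 1 transcript and 22.6% for the others. A slope below 1 means that a gene is lower in deeper libraries once counts are scaled to library size. What produced this in the counting was not tested. Calls or medians are therefore also given by kind, and levels per length are compared within a kind.

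**Figure D1:**
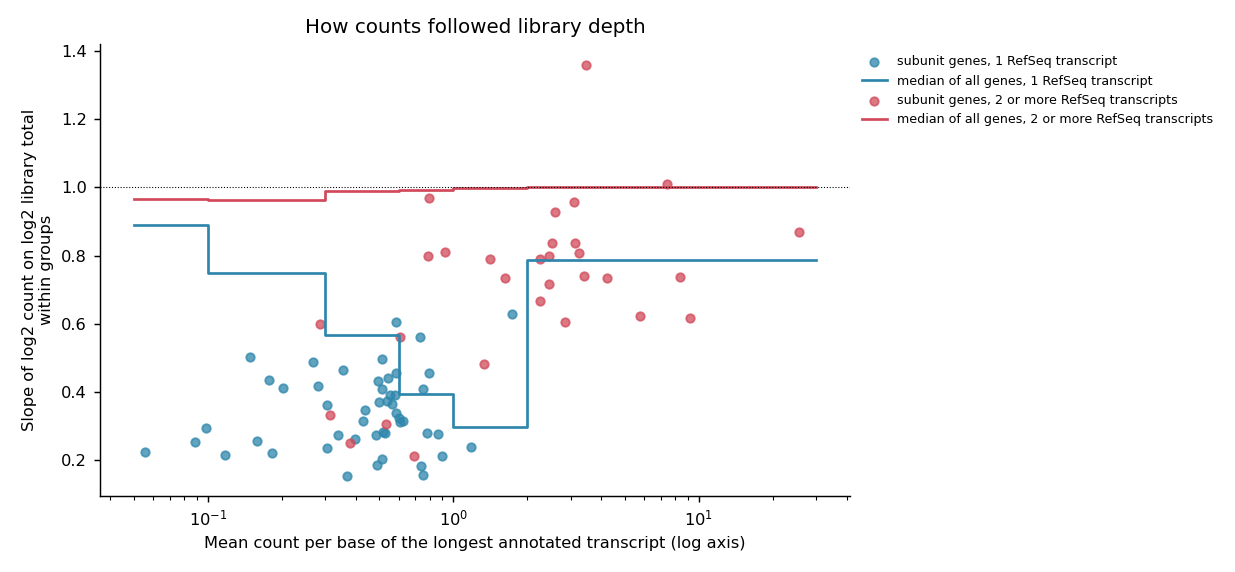
Each point is a subunit gene with a mean of at least 100 counts. The x axis gives its mean count per base of its longest annotated transcript on a log axis, and the y axis the slope of its log2 count on the log2 total of the library within groups, where 1 means that counts followed depth. Lines give the median slope of all genes in bins of counts per base, with the first bin drawn from 0.05 and the last to 30. Members with 1 RefSeq transcript (blue) lie between 0.15 and 0.63, and members with 2 or more (red) mostly higher, with a median of 0.74.

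The promoters of members that carry the results are shown first. RefSeq promoter sequences (GRCm38.p6, 250 bases before to 50 after the start site) were matched for 69 members, which had 74 promoters, and not, among others, for Atp5a1, Atp5mpl, Cox4i1, Cox4i2, Cox6a2, Cox6c, Cox8c, Ndufa2, Ndufa4l2, Ndufb4c, Ndufb9, Ndufs1, Sdhc, Uqcrb, Uqcrc2 and Uqcrq. Motif cores of 4 factors known to act on nuclear genes of the respiratory chain or on housekeeping promoters were searched on both strands. GCGCATGCG, the core of the site for NRF1, stood in 10.8% of member promoters and in 1.75% of all 32851 promoters. CCGGAAG, the core for GABPA and other ETS factors, stood in 23% against 8.86%, AAGATGGC, the core for YY1, in 13.5% against 2.75%, and GGGCGG, the GC box bound by Sp1, in 39.2% against 35.7%. Of the 69 genes 45 held at least 1 of the 4. The following are printed 5′ to 3′ in the direction of the gene, with a match on either strand in capitals. Atp5g3 (chr2:73911277-73911576, minus strand) and Uqcr10 (chr11:4704295-4704594, minus strand), among the largest rises at day 6, held none of the 4. Sdhb (chr4:140961021-140961320, plus strand), the member of complex II that rose, held 3 GC boxes and an ETS core. Atp5pb (chr3:105959214-105959513, minus strand) held 2 GC boxes and a YY1 core, and the second of the Atp5j promoters (chr16:84834927-84835226, minus strand) held a YY1 and an ETS core. Cox7a2l (chr17:83514284-83514583, minus strand), which did not rise, held 2 GC boxes. A match describes letters only and no binding was measured.
Atp5g3: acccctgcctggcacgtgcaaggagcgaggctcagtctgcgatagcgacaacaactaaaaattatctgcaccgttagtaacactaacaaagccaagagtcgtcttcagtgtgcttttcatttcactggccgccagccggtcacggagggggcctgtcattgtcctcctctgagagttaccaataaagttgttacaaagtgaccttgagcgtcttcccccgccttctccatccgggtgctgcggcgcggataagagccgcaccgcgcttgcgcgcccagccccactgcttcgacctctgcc
Uqcr10: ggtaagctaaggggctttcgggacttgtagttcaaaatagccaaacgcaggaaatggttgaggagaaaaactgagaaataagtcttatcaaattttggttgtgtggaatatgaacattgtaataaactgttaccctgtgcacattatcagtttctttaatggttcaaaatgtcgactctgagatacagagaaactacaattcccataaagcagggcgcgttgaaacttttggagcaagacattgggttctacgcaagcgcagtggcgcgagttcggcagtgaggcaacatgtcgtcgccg
Sdhb: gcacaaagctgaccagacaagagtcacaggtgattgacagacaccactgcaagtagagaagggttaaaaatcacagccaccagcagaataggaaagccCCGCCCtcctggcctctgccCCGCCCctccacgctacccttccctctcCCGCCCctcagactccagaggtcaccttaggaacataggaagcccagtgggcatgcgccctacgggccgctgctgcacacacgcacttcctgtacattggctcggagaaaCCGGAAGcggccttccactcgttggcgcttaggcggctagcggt
Atp5pb: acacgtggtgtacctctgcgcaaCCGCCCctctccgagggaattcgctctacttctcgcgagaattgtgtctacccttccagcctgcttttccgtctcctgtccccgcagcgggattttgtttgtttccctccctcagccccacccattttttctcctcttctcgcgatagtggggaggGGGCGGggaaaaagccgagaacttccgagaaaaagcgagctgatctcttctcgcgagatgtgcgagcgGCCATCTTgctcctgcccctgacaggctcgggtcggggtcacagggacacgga
Atp5j: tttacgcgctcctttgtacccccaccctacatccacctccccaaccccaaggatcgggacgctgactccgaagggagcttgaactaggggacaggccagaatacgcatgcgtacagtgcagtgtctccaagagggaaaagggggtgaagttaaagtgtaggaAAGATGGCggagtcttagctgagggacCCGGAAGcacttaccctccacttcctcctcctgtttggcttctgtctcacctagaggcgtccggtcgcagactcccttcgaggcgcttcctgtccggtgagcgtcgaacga
Cox7a2l: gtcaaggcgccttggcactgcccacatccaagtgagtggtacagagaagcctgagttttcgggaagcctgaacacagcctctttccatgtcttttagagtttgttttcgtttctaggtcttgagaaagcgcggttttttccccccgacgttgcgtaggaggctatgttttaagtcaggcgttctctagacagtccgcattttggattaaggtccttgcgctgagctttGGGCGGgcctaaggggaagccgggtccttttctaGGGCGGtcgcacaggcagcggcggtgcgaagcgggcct

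At day 6 after a single dose of 5-FU, subunit genes of all 5 complexes were higher than after PBS. In edgeR's quasi-likelihood test with Benjamini-Hochberg adjustment over 12759 genes, 33 of the 80 tested members rose and 0 fell, whereas 11.5% of all genes tested rose and 10.6% fell. The fold change was above 0 for 78 of 80 members, with a median log2 fold change of 0.32 over the members and 0.00 over all genes. The sum over the 86 members went from 4574 ± 162 CPM (SD, n = 3) in PBS-1 day 6, or 0.457% of all counts, to 6451 ± 150 CPM in 5FU-1 day 6, a 1.41-fold difference. Among members with 2 or more transcripts 22 of 30 (73.3%) rose, against 14.3% of all such genes, with a median log2 fold change of 0.53. Among members with 1 transcript 11 of 50 (22%) rose, against 8.71% of all such genes, with a median of 0.29. At an unadjusted p under 0.05 in the same test there were 62 of the 80 members (77.5%), against 37.6% of all genes. Without scaling to library size, 20 members rose, and 1 of the 50 members with 1 transcript did. The share of all genes that rose without scaling is not given here.

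**Figure D2:**
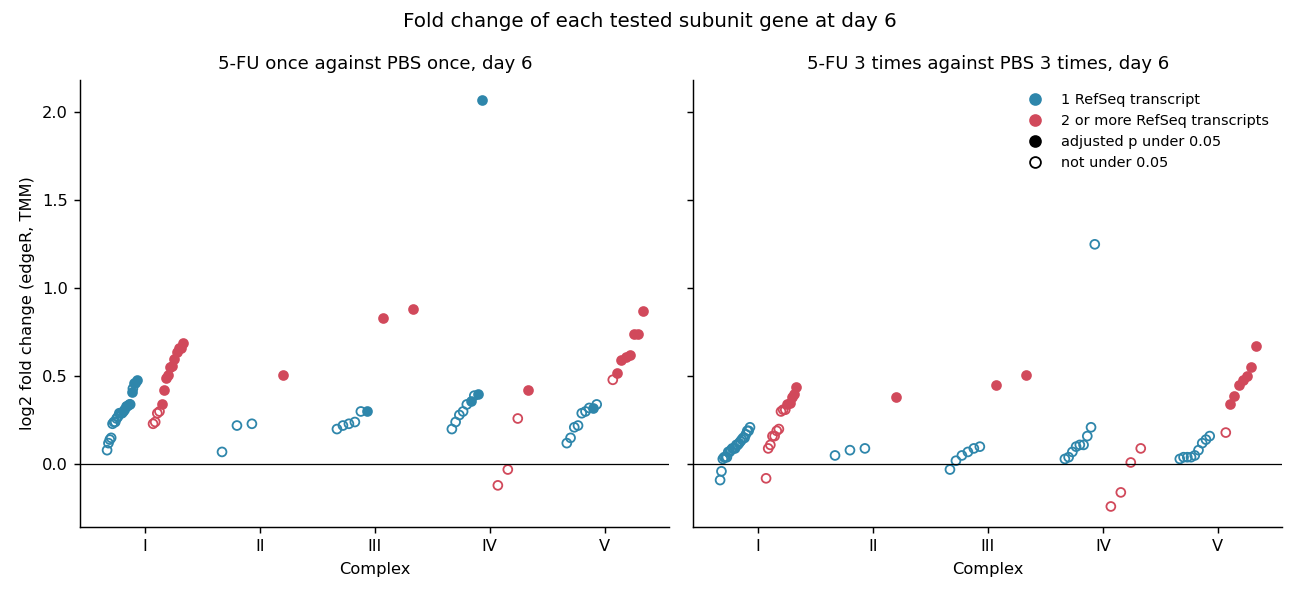
The y axis gives the log2 fold change of each tested member at day 6 (edgeR, TMM scaling), with members ordered by size within each complex on the x axis. Filled points had an adjusted p under 0.05, red points have 2 or more RefSeq transcripts and blue points 1. After a single dose 33 of 80 points are filled and after 3 doses 15, all of the latter red, and the highest point in both panels is Cox4i2.

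Complex I takes electrons from NADH. Of its 38 tested genes 17 rose after a single dose, with a median log2 fold change of 0.33. Among its core subunits, Ndufs1, which holds iron-sulphur clusters of the NADH arm, stood at 285, 261 and 252 CPM in PBS-1 day 6 and at 351, 426 and 380 CPM in 5FU-1 day 6. The libraries did not overlap, and the log2 fold change was 0.55 ± 0.09 (SE) with an adjusted p of 0.00733 in edgeR's quasi-likelihood test. Its partner Ndufv2 rose by 0.51 ± 0.07 on the log2 scale and Ndufs8, in the arm that passes electrons to ubiquinone, by 0.49 ± 0.10. Ndufs7, Ndufs3 and Ndufv1 did not pass the test. Ndufs7 had a log2 fold change of 0.30 ± 0.10, Ndufs3 of 0.29 ± 0.11 and Ndufv1, which binds the FMN that accepts electrons from NADH, of 0.08 ± 0.08. Ndufs3 and Ndufv1 have 1 transcript.

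The accessory subunits of complex I with 2 or more transcripts had log2 fold changes between 0.23 (Ndufa7) and 0.69 (Ndufa12), and those that rose were Ndufa12, Ndufa13, Ndufb1, Ndufb2, Ndufa5, Ndufb8, Ndufb11 and Ndufb9. Ndufa13, also known as GRIM-19, went from 82.4, 77 and 87.7 CPM to 122, 139 and 126 CPM, with no overlap, and rose by 0.66 ± 0.08 on the log2 scale (adjusted p = 0.00357, edgeR's quasi-likelihood test). Of its exon bases, 30% overlap Tssk6 on the opposite strand, and whether the counting used strand is not given in the sources used here. Accessory subunits with 1 transcript that rose were Ndufb4, Ndufc1, Ndufb6, Ndufb7, Ndufb5 and Ndufa9, by 0.30 to 0.48 on the log2 scale. Ndufb4 and its processed copy Ndufb4c had close counts in every library (630 and 640 in the first library of PBS-1 day 6), and reads of the pair may have been split or shared in the counting. Of the exon bases of Ndufb6, 39% overlap Smim27 on the opposite strand, and 19.5% of those of Ndufb9 overlap Gm49356 on the same strand.

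Complex II, the succinate dehydrogenase, has 4 genes and links the tricarboxylic acid cycle to the chain. Sdhb, its iron-sulphur subunit, went from 118, 111 and 120 CPM to 156, 164 and 173 CPM after a single dose. These libraries did not overlap, and the log2 fold change was 0.51 ± 0.07 (adjusted p = 0.00442, edgeR's quasi-likelihood test). Sdha, the flavoprotein that oxidizes succinate, stood at 76.5, 78.6 and 80.4 CPM against 86.4, 79.3 and 79.6 CPM, which overlapped, with a log2 fold change of 0.07 ± 0.07. The membrane anchors Sdhc and Sdhd had log2 fold changes of 0.23 ± 0.08 and 0.22 ± 0.07 and did not pass the test. Sdhb is the one gene of the 4 with 2 or more transcripts.

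Complex III passes electrons from ubiquinol to cytochrome c. The small subunits Uqcrq (GRCm38.p6, chr11:53427922-53430831, minus strand) and Uqcr10 (chr11:4701973-4704342, minus strand), its 2 genes with several transcripts, gave 2 of the 3 largest rises among members with a mean of at least 100 counts. Uqcrq went from 38.3, 37.2 and 42.8 CPM to 61.5, 74.5 and 80.2 CPM, a rise of 0.88 ± 0.12 on the log2 scale (adjusted p = 0.00377, edgeR's quasi-likelihood test). Uqcr10 went from 51, 45.2 and 52.4 CPM to 84.6, 84.2 and 92.8 CPM, or 0.83 ± 0.09 (adjusted p = 0.002). For both genes every 5FU-1 day 6 library lay above every PBS-1 day 6 library. Uqcrfs1, the Rieske iron-sulphur protein, rose by 0.30 ± 0.09, while the core proteins Uqcrc1 (0.20 ± 0.07) and Uqcrc2 (0.22 ± 0.07) did not pass the test. The summed level of the 2 genes with several transcripts was 1.79-fold that of PBS-1 day 6, and that of the 6 with 1 transcript 1.17-fold.

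Complex IV, cytochrome c oxidase, hands the electrons to oxygen, and several of its subunits are encoded by more than 1 gene. Of its 13 tested members 4 rose after a single dose. Cox4i2 (GRCm38.p6, chr2:152754173-152765037, plus strand), the form of subunit 4 known to be induced by low oxygen in lung, was the member with the largest fold change. It stood at 1, 1.5 and 1.42 CPM in PBS-1 day 6 (27, 40 and 33 counts) and at 5.8, 5.51 and 5.04 CPM in 5FU-1 day 6 (139, 150 and 133 counts). The log2 fold change was 2.07 ± 0.28, or 4.19-fold, with an adjusted p of 0.00419 in edgeR's quasi-likelihood test. Its share of the counts of Cox4i1 and Cox4i2, not corrected for length and taken over genes of different kinds, was 0.47% to 0.691% in PBS-1 day 6 and 1.71% to 1.99% in 5FU-1 day 6.

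Cox4i1, the common form of subunit 4, went from 213, 216 and 229 CPM to 285, 298 and 289 CPM and rose by 0.42 ± 0.06 on the log2 scale (adjusted p = 0.00476, edgeR's quasi-likelihood test). Cox5a and Cox7a2 rose by 0.36 ± 0.09 and 0.40 ± 0.11, while Cox5b (0.34 ± 0.11), Cox6a1 (0.28 ± 0.11), Cox7b (0.39 ± 0.12) and Cox8a (0.20 ± 0.09) did not pass the test. The 2 members with a fold change below 0 were also in this complex. Cox7a2l (chr17:83501918-83517330, minus strand) stood at 106, 109 and 115 CPM in PBS-1 day 6 and at 103, 101 and 96.2 CPM in 5FU-1 day 6, or -0.12 ± 0.07 in log2 fold change (adjusted p = 0.226). Cox6b2, known as the testis form of subunit 6b, had 48.6, 53.1 and 52.2 CPM against 51.2, 49 and 48.9 CPM, a log2 fold change of -0.03 ± 0.07. Not corrected for length, it held 76.8% to 78.6% of the counts of Cox6b1 and Cox6b2 in PBS-1 day 6 and 72.9% to 74.5% in 5FU-1 day 6, and its common counterpart Cox6b1 had a log2 fold change of 0.26 ± 0.09 that did not pass the test. Over both kinds together, complex IV had the smallest difference in summed level, 1.18-fold. Its ratio was 1.26 for genes with 1 transcript, the highest of any complex for that kind, and 1.16 for the others.

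**Figure D3:**
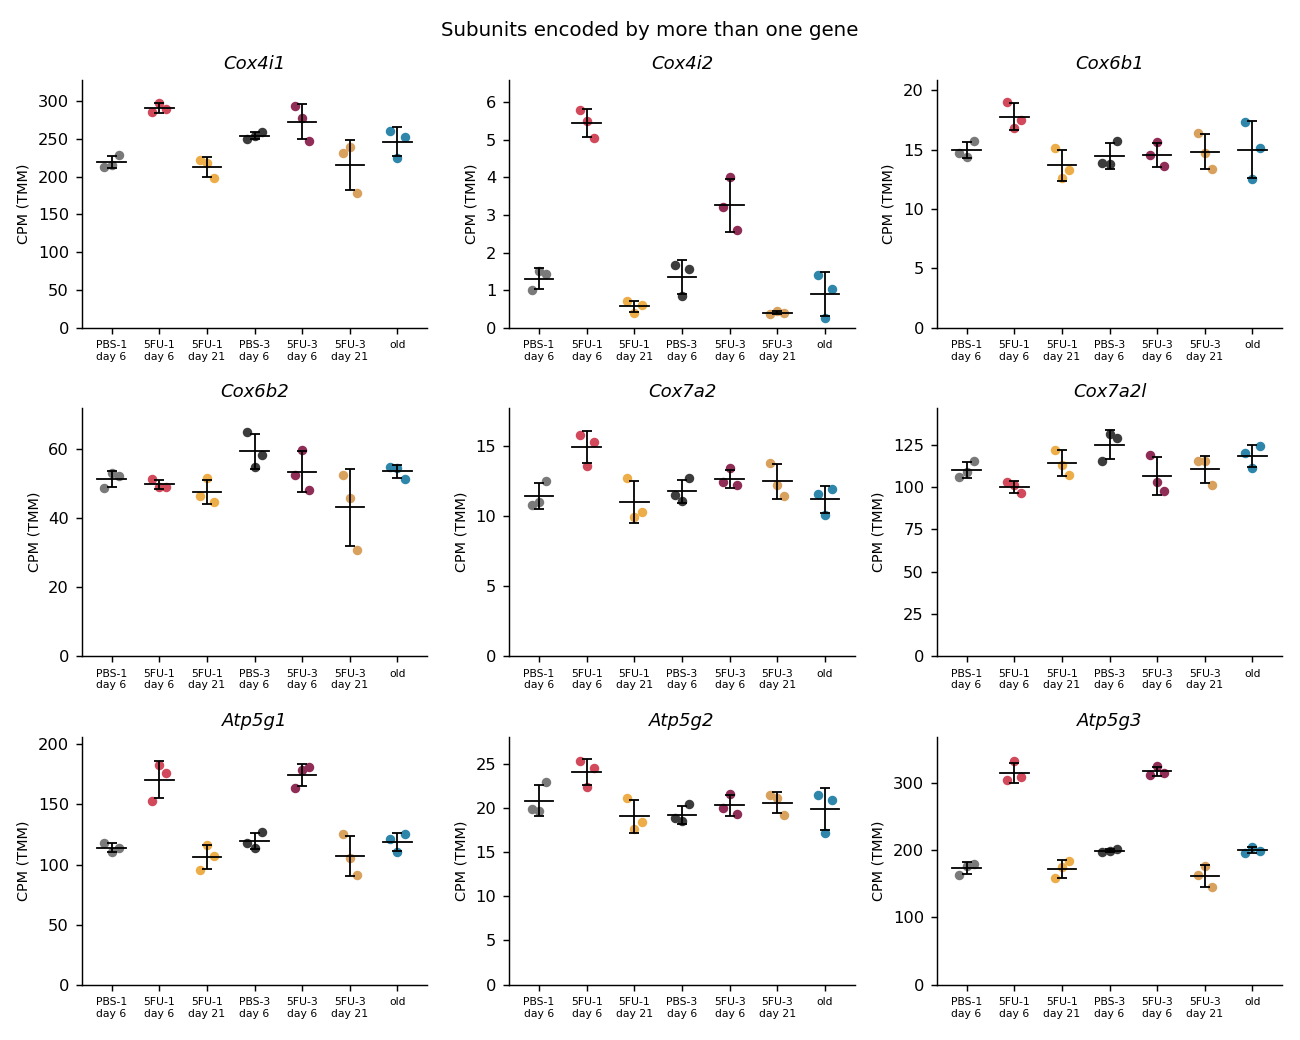
Each panel gives the TMM-scaled CPM of a gene in every library (points) with the mean and SD (lines, n = 3) per group. Cox4i2 stands above 5 CPM in the 3 libraries of 5FU-1 day 6 and below 2 CPM in all libraries outside the day 6 5-FU groups, whereas Cox6b2 and Cox7a2l are not higher in either day 6 5-FU group.

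Over both kinds together, complex V showed the largest difference in summed level, from 1987 ± 47.6 CPM to 3047 ± 108 CPM (SD, n = 3), or 1.53-fold. Among genes with 2 or more transcripts its ratio was 1.6, below the 1.79 of complex III. Among genes with 1 transcript it was 1.13, below the 1.26 of complex IV. Of the 17 genes of complex V 8 rose. The c subunit, which forms the ring that turns as protons pass, is encoded by Atp5g1, Atp5g2 and Atp5g3. Atp5g3 (GRCm38.p6, chr2:73908447-73911326, minus strand) went from 163, 177 and 180 CPM to 304, 332 and 309 CPM, with no overlap, and rose by 0.87 ± 0.07 on the log2 scale (adjusted p = 0.000935, edgeR's quasi-likelihood test). Atp5g1 went from 118, 110 and 114 CPM to 153, 183 and 176 CPM (0.59 ± 0.09, adjusted p = 0.0049), and Atp5g2, which has 1 transcript, from 19.9, 19.7 and 22.9 CPM to 25.3, 22.4 and 24.5 CPM, which overlapped (0.22 ± 0.10, adjusted p = 0.151).

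In the stalks of the ATP synthase, Atp5j (coupling factor 6) went from 656, 657 and 663 CPM to 1027, 1130 and 1127 CPM. This was the most abundant member per length, and its log2 fold change was 0.74 ± 0.06 (adjusted p = 0.000935, edgeR's quasi-likelihood test). Of its exon bases, 12.7% overlap Gabpa on the opposite strand, whose own log2 fold change was 0.19 ± 0.08. Atp5pb, the b subunit, rose by 0.62 ± 0.06, Atp5mpl by 0.74 ± 0.07, and the central stalk subunits Atp5c1 (gamma) and Atp5d (delta) by 0.61 ± 0.06 and 0.52 ± 0.08. Atp5o, of whose exon bases 54.2% overlap Donson on the same strand, rose by 0.32 ± 0.08. The catalytic head subunits Atp5a1 (0.12 ± 0.08) and Atp5b (0.15 ± 0.08), both with 1 transcript, did not pass the test, and their libraries overlapped.

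**Figure D4:**
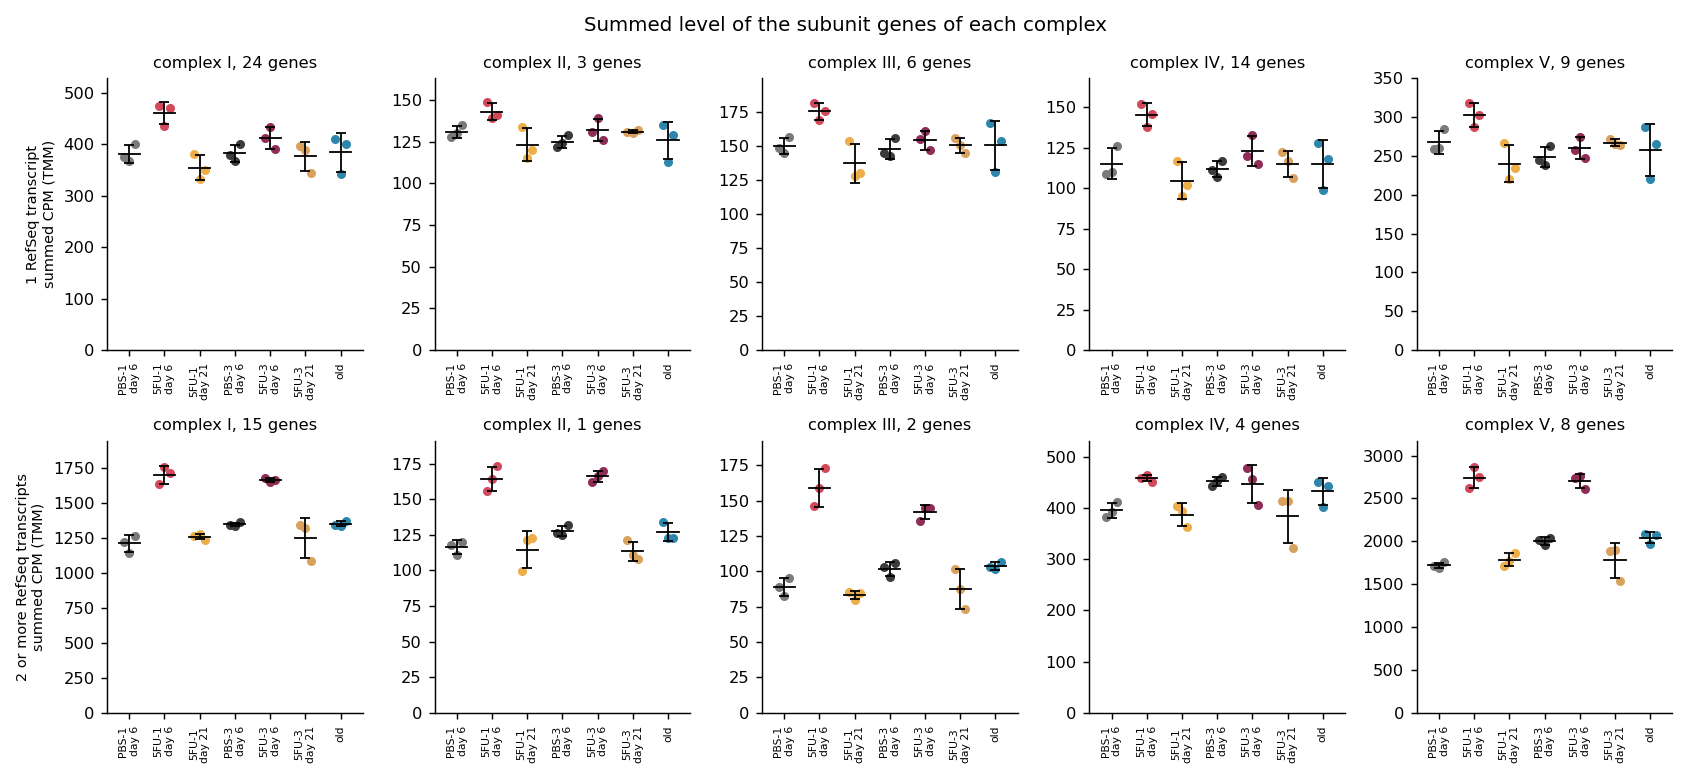
The y axis gives the summed TMM-scaled CPM of the subunit genes of each complex per library (points), with the mean and SD (lines, n = 3) per group on the x axis. The upper row holds genes with 1 RefSeq transcript and the lower row genes with 2 or more, and in the lower row the 5FU-1 day 6 libraries lie above the PBS-1 day 6 libraries in all 5 complexes.

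After 3 doses of 5-FU the members were again mostly higher at day 6 than after PBS, with smaller fold changes in these libraries. Of the 80 tested members 15 rose and 0 fell, against 9.84% and 8.3% of 12729 genes (edgeR's quasi-likelihood test, Benjamini-Hochberg adjustment), and the median log2 fold change was 0.11, with -0.01 over all genes. This median was 0.01 without the TMM factor and 0.23 without scaling to library size. All 15 were genes with 2 or more transcripts, where 15 of 30 (50%) rose against 12.9% of such genes, with a median of 0.33. Of the 50 members with 1 transcript 0 rose, against 6.74% of such genes. At an unadjusted p under 0.05 there were 2 of these 50 (4%), against 26.9% of all genes with 1 transcript. After adjustment 2 were called when genes with 1 transcript were fitted alone. The count of 15 moved to 8 without PBS-3 day 6 replicate 2, to 9 without PBS-3 day 6 replicate 1 and to 9 without the TMM factor.

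These 15 genes were 5 of complex I (Ndufa12, Ndufa5, Ndufb2, Ndufs1 and Ndufv2), Sdhb, Uqcr10 and Uqcrq, and 7 of complex V (Atp5c1, Atp5d, Atp5g1, Atp5g3, Atp5j, Atp5mpl and Atp5pb). All 15 had also risen after a single dose, where they made up 45.5% of the 33. The 2 comparisons share no library, but the sorting gate differed from that of PBS in both. The same overlap over all genes is not given here, so whether it is particular to the members cannot be read from it. The largest rises were Atp5g3, from 197, 199 and 201 CPM to 312, 325 and 315 CPM (log2 fold change 0.67 ± 0.06, adjusted p = 0.00225), Atp5g1, from 118, 114 and 127 CPM to 164, 179 and 181 CPM (0.55 ± 0.08, adjusted p = 0.00664), and Uqcrq, from 48.4, 43.3 and 45.4 CPM to 63.3, 66.4 and 65.8 CPM (0.51 ± 0.08, adjusted p = 0.00753). For all 3 the libraries did not overlap. Sdhb had 126, 125 and 132 CPM against 162, 166 and 170 CPM (0.38 ± 0.07).

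Complex IV had 0 of 13 members past the test after 3 doses. At an unadjusted p under 0.05 it had 1 (7.69%), against 32.9% of all genes. Cox4i2 stood at 1.68, 0.842 and 1.56 CPM in PBS-3 day 6 and at 3.2, 4 and 2.59 CPM in 5FU-3 day 6. The libraries did not overlap, but the log2 fold change of 1.25 ± 0.43 did not pass the test (adjusted p = 0.0863, edgeR's quasi-likelihood test). Cox4i1 had 250, 254 and 259 CPM against 293, 278 and 247 CPM, a log2 fold change of 0.09 ± 0.08, and Cox7a2l one of -0.24 ± 0.10 (adjusted p = 0.164). The summed level of complex IV was 564 ± 12.2 CPM in PBS-3 day 6 and 569 ± 42.1 CPM in 5FU-3 day 6 (SD, n = 3), a ratio of 1.01, while that of complex V went from 2253 ± 54.5 to 2965 ± 92.8 CPM, or 1.32-fold, and that of all members from 5046 ± 110 to 6203 ± 161 CPM, or 1.23-fold. For genes with 1 transcript the ratio was 1.1 in complex IV and 1.05 in complex V. For the others it was 0.986 and 1.35.

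Whether the response differed between the first and the third dose was tested as an interaction over the 4 day 6 groups. Of the 80 members 0 passed in either direction (edgeR's quasi-likelihood test, adjusted), against 0.34% of 13227 genes higher and 0.31% lower. The interaction was below 0, meaning a smaller fold change after 3 doses, for 78 of 80 members, with a median of -0.20 on the log2 scale. The median was -0.19 for members with 1 transcript and -0.22 for the others, and -0.09 over the members with counts not scaled. Over all genes 49.9% were above 0, with 45.9% of those with 1 transcript and 53.9% of the others. The 5FU-3 day 6 libraries (31358819 to 38649033 counts) were mostly deeper than those of PBS-3 day 6 (27023725 to 31724107). The part of depth in the interaction was not tested. At an unadjusted p under 0.05 there were 14 members (17.5%), against 14.8% of all genes. DESeq2, which gave a higher share of false calls than edgeR in simulated data, called 4, all lower (Atp5j, Cox4i1, Ndufa13 and Uqcr10). The shares of all genes that DESeq2 called are not given here, so its counts of members stand without a background. The smallest p belonged to Atp5j (-0.40 ± 0.08, adjusted p = 0.051), Ndufa13 (-0.46 ± 0.10, adjusted p = 0.0722) and Cox4i1 (-0.31 ± 0.09, adjusted p = 0.144). The controls of both dose rounds were also compared. PBS-3 day 6 against PBS-1 day 6 gave 0 of 80 members past the test in either direction, against 0.00781% of all genes in each direction, with 13 (16.2%) at an unadjusted p under 0.05 against 12.8% of all genes. These 13 all had 2 or more transcripts, where the median log2 fold change was 0.19, while it was 0.00 for members with 1. DESeq2, with the same limit, called 5 of them higher (Atp5c1, Atp5g3, Atp5j, Atp5pb and Cox4i1). Atp5j, for example, stood at 801, 761 and 815 CPM in PBS-3 day 6 against 656, 657 and 663 CPM in PBS-1 day 6 (log2 fold change 0.27 ± 0.05, adjusted p = 0.144), Atp5c1 had 0.25 ± 0.06 and Cox4i1 0.22 ± 0.06. The 6 libraries of PBS-1 day 6 and 5FU-1 day 6 carry a suffix in their column names that the 15 others lack. Its meaning is not given in the sources used here. Mice given 3 doses from the same starting age were also older at day 6. For this contrast between dose rounds the suffix, the number of doses and age cannot be told apart.

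**Figure D5:**
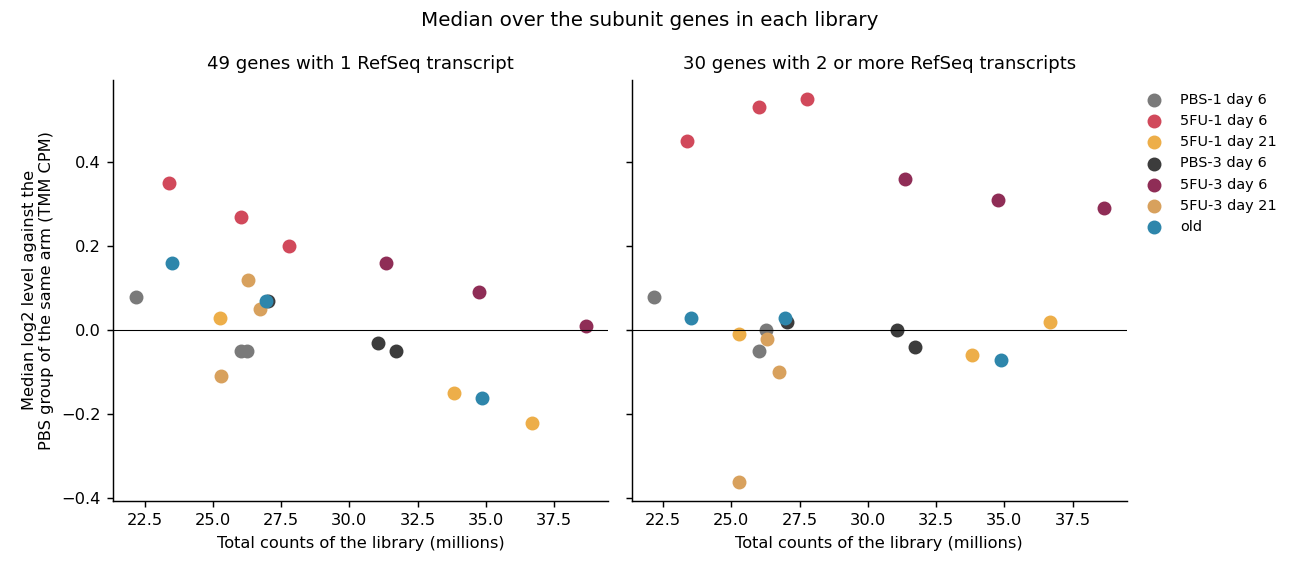
The x axis gives the total counts of each library and the y axis the median over members of the log2 level against the mean of the PBS group with the same number of doses (PBS-3 day 6 for old). On the left, for 49 members with 1 RefSeq transcript, deeper libraries of a group tend to sit lower, and on the right, for 30 members with 2 or more, the 3 libraries of 5FU-1 day 6 lie at 0.45 to 0.55, those of 5FU-3 day 6 at 0.29 to 0.36, and all others at or below 0.08.

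By day 21 after a single dose the members were lower than at day 6. Of the 80 tested 57 fell and 0 rose, against 13.7% and 12.3% of 12589 genes (edgeR's quasi-likelihood test, adjusted), with a median log2 fold change of -0.42. Among members with 2 or more transcripts 27 of 30 (90%) fell, against 13.6% of such genes, and among those with 1 transcript 30 of 50, against 13.8%. Uqcrq fell by 0.99 on the log2 scale to 38, 34.9 and 36.7 CPM, Uqcr10 by 0.91 to 47.3, 45.1 and 47.8 CPM and Atp5g3 by 0.88 to 158, 175 and 184 CPM, all without overlap with day 6. Cox4i2 went to 0.706, 0.403 and 0.596 CPM, a log2 fold change of -3.27 ± 0.36 (adjusted p = 0.00178). Cox7a2l was the member with a fold change above 0, at 122, 113 and 107 CPM (0.17 ± 0.08, adjusted p = 0.162).

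The count of 57 depended on scaling and on single libraries. A pair of the day 21 libraries (36669644 and 33817653 counts) were deeper than all of day 6 (23395821 to 27771296). Without scaling to library size 3 members fell (Cox4i2, Uqcr10 and Uqcrq), with a median log2 fold change of -0.14. The count was 24, 27 and 23 without 5FU-1 day 6 replicate 1, 2 or 3, and 28 and 25 without 5FU-1 day 21 replicate 2 or 3.

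After 3 doses, 16 of 80 members were lower at day 21 than at day 6 and 0 higher, against 10.8% and 8.68% of 12553 genes, with a median log2 fold change of -0.15, which was -0.04 without the TMM factor and -0.45 without scaling to library size. Members with 2 or more transcripts made up 15 of the 16, of 30 tested (50%, against 14.5% of such genes), and Cox4i2 was the one with 1 transcript, of 50 tested (2%, against 7.17%). Atp5g3 fell by 0.98 on the log2 scale to 163, 177 and 145 CPM, Uqcrq by 0.82 to 41.3, 35.5 and 35 CPM and Atp5g1 by 0.72 to 125, 105 and 91.6 CPM. Cox4i2 stood at 0.373, 0.44 and 0.396 CPM, and fell by 3.01 on the log2 scale with an SE of 0.45 (adjusted p = 0.00526, edgeR's quasi-likelihood test). Here the day 6 libraries were the deeper ones, and 47 members fell without scaling and 25 with all 21 libraries in one fit. Replicate 3 of 5FU-3 day 21 stood apart, with a median level of members with 2 or more transcripts of -0.36 against PBS-3 day 6, where the other libraries had -0.02 and -0.10. Without it 15 members fell, and without 5FU-3 day 6 replicate 1, 2 or 3 the counts were 10, 9 and 10.

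The day 21 libraries were close to PBS at day 6, with a summed level of 4585 ± 43 CPM in 5FU-1 day 21 and 4651 ± 462 CPM in 5FU-3 day 21 (SD, n = 3), and edgeR's quasi-likelihood test called no member. After a single dose, 0 of 80 members were called in either direction, against 0.0712% of genes higher and 0.15% lower, with a median log2 fold change of -0.12 for members with 1 transcript and -0.02 for the others. There were 2 members (2.5%) at an unadjusted p under 0.05, against 13.3% of all genes. DESeq2, with its higher share of false calls in simulated data, called 1 higher, Ndufs1, at 300, 312 and 317 CPM (log2 fold change 0.22 ± 0.07, adjusted p = 0.275 in edgeR). Ndufv1 (-0.26 ± 0.09) and Ndufb10 (-0.21 ± 0.11) followed. After 3 doses 0 of 80 were called, against 0.0396% of genes higher and 0.00792% lower, with 4 (5%) at an unadjusted p under 0.05 against 13.7% of all genes. The median was 0.02 for members with 1 transcript and -0.16 for the others, of which 24 of 30 were below 0. The smallest p belonged to Atp5g3 (-0.31 ± 0.09, adjusted p = 0.238), which DESeq2 called, Uqcrq (-0.30 ± 0.10) and Cox6b2 (-0.46 ± 0.19). Cox4i2 lay below all PBS libraries of its arm in both cases, with log2 fold changes of -1.20 ± 0.59 and -1.75 ± 0.60 that did not pass the test (adjusted p = 0.431 and 0.287). An edgeR test of whether the day 21 difference from PBS differed between 1 and 3 doses called 0 of 80 members in either direction, as it did 0% of 13182 genes. The median was 0.12 for members with 1 transcript and -0.17 for the others. There were 6 members (7.5%) at an unadjusted p under 0.05 against 9.66% of all genes, and DESeq2 called Ndufv1 (0.38 ± 0.11, adjusted p = 0.326 in edgeR), while Atp5b (0.33 ± 0.13) and Atp5a1 (0.31 ± 0.12) had the next smallest p.

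In untreated HSCs from 2-year-old mice the subunit genes were close to PBS-3 day 6. Of 80 members 0 were called, against 0.553% of 12847 genes higher and 0.444% lower (edgeR's quasi-likelihood test), 0 had an unadjusted p under 0.05, against 11.2% of all genes, and DESeq2 called 0. The median log2 fold change was 0.01 for members with 1 transcript and 0.00 for the others, and the summed level was 5089 ± 221 CPM in old and 5046 ± 110 CPM in PBS-3 day 6 (SD, n = 3). The smallest p belonged to Cox6b2 (-0.15 ± 0.10), Ndufb4 (-0.13 ± 0.09) and Sdhc (-0.16 ± 0.12), all with an adjusted p of 0.672 or more. Age and the injections of PBS both differ between these groups and cannot be told apart. With PBS-1 day 6 as the control, 1 member, Atp5j, was higher.

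Levels per kilobase of the longest annotated transcript in PBS-1 day 6 were set side by side within a kind of gene, for members with a mean of at least 100 counts. Among members with 2 or more transcripts the highest were Atp5j with 710 ± 4.2 CPM per kb (SD, n = 3), Cox4i1 with 287 ± 11.1, Atp5c1 with 239 ± 8.76, Atp5g3 with 201 ± 10.1 and Ndufs8 with 167 ± 20.3. Next among the 3 highest of each complex came Ndufb9 (135 ± 8.33), Ndufs7 (106 ± 12.1), Cox7a2l (97.5 ± 4.11), Uqcr10 (97.1 ± 7.52), Sdhb (94.3 ± 3.83) and Cox6b2 (87.7 ± 4.05), while Uqcrq stood lower at 25.9 ± 1.95. Of these, Cox7a2l, Uqcr10 and Sdhb lay within their spread of each other. Members outside the 3 highest of their complex, such as Ndufs1 and Atp5d, were left out of this order. Among those with 1 transcript, Sdhd (27.6 ± 1.35), Sdha (27.1 ± 0.67) and Uqcrb (25.8 ± 1.73) led in complexes II and III. The lowest of this kind in complex V were Atp5l (1.85 ± 0.156), Atp5md (3.34 ± 0.142) and Atp5j2 (5.48 ± 0.389), in complex I Ndufb7 (3.02 ± 0.179), Ndufb5 (5.14 ± 0.284) and Ndufc1 (6.46 ± 0.262), in complex IV Cox6c (4 ± 0.483), Cox5a (9.41 ± 0.486) and Cox7b (12.4 ± 1.24), in complex II Sdhc (5.88 ± 0.304) and in complex III Uqcrh (16.9 ± 1.49), Uqcrc2 (17.7 ± 0.59) and Uqcrfs1 (18.1 ± 1.36). The longest annotated transcripts of several of these are far longer than their usual messages (6310 bases for Atp5l), which lowers the value per kilobase.

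Factors that build the complexes and the carriers that connect them were counted from lists next to the rule. Their counts stand against the 11.5% of all genes that rose after a single dose and the 9.84% after 3. Of 17 assembly factors and remaining subunits of complex I, 2 (11.8%) rose after a single dose, namely Ndufab1, the acyl carrier subunit (log2 fold change 0.63 ± 0.08), and Ndufaf2 (0.70 ± 0.09), and 2 rose after 3 doses, Ndufab1 (0.45 ± 0.07) and Ecsit (0.40 ± 0.08). For complex II 0 of 4 assembly factors passed after either. For complex III, Uqcc2 (0.79 ± 0.07) and the cytochrome c1 gene Cyc1 (0.27 ± 0.08) rose among 7 after a single dose, and Uqcc2 (0.41 ± 0.10) after 3. Of 25 complex IV assembly factors 2 (8%), Higd1a (0.45 ± 0.09) and Cox16 (0.45 ± 0.10) rose after a single dose. After 3 doses Higd1a (0.50 ± 0.07), Cox10 (0.53 ± 0.12) and Lrpprc (0.57 ± 0.08) rose and Surf1 fell by 0.45 on the log2 scale. For complex V, 1 of 4 passed after a single dose, Tmem70 (0.27 ± 0.07), and 0 of 4 after 3. At day 21 against day 6, 6 of the 17 complex I factors fell after a single dose and 5 after 3, against 13.7% and 10.8% of all genes.

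Among 16 tested carriers of electrons and substrates 7 (43.8%) rose after a single dose and 4 (25%) after 3, against the same 11.5% and 9.84% of all genes. Cycs, which encodes cytochrome c, rose by 0.44 ± 0.08 and 0.38 ± 0.10, and Coq7, an enzyme of ubiquinone synthesis, by 0.86 ± 0.19 and 0.66 ± 0.10. Coq3, Coq2, Etfa, Slc25a3 and Vdac3 completed the first count, and Vdac1 and Vdac3 the second. Of 15 regulators of mitochondrial biogenesis 1 (6.67%) rose after a single dose and 2 (13.3%) after 3. Pprc1, a coactivator related to PGC-1 alpha, rose after a single dose (0.30 ± 0.07) and after 3 (0.68 ± 0.11), and Yy1 after 3 (0.29 ± 0.08). Nrf1 (0.07 ± 0.08 and 0.35 ± 0.17), Gabpa (0.19 ± 0.08 and 0.21 ± 0.15) and Tfam, which maintains mitochondrial DNA (0.14 ± 0.10 and 0.18 ± 0.08), did not pass the test in either comparison.

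Markers of cycling and of other cells moved in the same libraries, and their part in the results was not tested. Their counts stand beside the 11.5% of all genes that rose and the 10.6% that fell after a single dose. After 3 doses these shares were 9.84% and 8.3%. Of 8 proliferation genes 4 rose after a single dose and 7 after 3, and their summed level was 586 to 632 CPM in PBS-1 day 6, 826 to 901 in 5FU-1 day 6, 431 to 501 in 5FU-1 day 21, 526 to 591 in PBS-3 day 6, 951 to 1090 in 5FU-3 day 6, 459 to 473 in 5FU-3 day 21 and 554 to 626 in old. Of 12 HSC markers 3 rose and 3 fell after a single dose, with a summed level of 4634 to 5104 CPM in PBS-1 day 6 and 3644 to 3797 in 5FU-1 day 6. After 3 doses 1 rose and 4 fell, with 4458 to 4822 CPM in PBS-3 day 6 and 3363 to 3499 in 5FU-3 day 6. Among 3 multipotent progenitor markers, Cd48, whose protein marks cells outside the gate, rose 1.77-fold after a single dose and 3.72-fold after 3, from 3.42 to 4.78 CPM to 7.13 to 7.87 CPM and from 2.26 to 3.93 CPM to 10.8 to 12 CPM. Cd34 and Flt3 fell in both, to 0.623-fold and 0.254-fold after a single dose and to 0.613-fold and 0.442-fold after 3. Neutrophil and myeloid markers were lower, 6 of 10 tested after a single dose, with 102 to 155 CPM against 59.5 to 74.6 CPM in sum, and 2 of 9 after 3 doses, with 92.9 to 126 against 52.6 to 76.4 CPM. Megakaryocyte markers fell in 4 of 6 and in 2 of 6. Of 4 tested monocyte and macrophage markers Cd68 rose after a single dose (1.68-fold) and 0 passed after 3. Of 4 tested erythroid markers Klf1 fell after a single dose, and Epor (1.53-fold) and Tfrc (2.09-fold) rose and Car1 fell after 3. Of the T lymphoid markers Cd8a had 0 counts in all libraries and Cd3e never exceeded 3, nor did Pax5 among the B lymphoid ones.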

How the data were processed

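The authors aligned single-end 75-base reads of SMART-Seq v4 and Nextera XT libraries with TopHat2 2.0.13 to mm10 and named Cuffdiff (Cufflinks 2.2.1). The table they deposited holds raw whole-number counts per gene for 21 libraries. The program that counted them, its use of strand and of reads with several matches are not given in the sources used here. The members and gene lists were chosen with earlier results of these data known.

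Counts were filtered with filterByExpr, scaled by TMM and tested with edgeR 4.0.16 (R 4.3.3) by its quasi-likelihood test, fitted on the 2 groups compared, or on the 4 groups of an interaction, over all genes passing the filter. P-values were adjusted by Benjamini-Hochberg and called at 0.05, and fold changes are given with their SE. CPM values used TMM factors. The scripts were tested on simulated data, where the share of false calls at a threshold of 0.05 stayed below it in edgeR and was raised in DESeq2. Only the single-dose contrast at day 6 and the day 6 interaction were simulated. The simulated counts followed library depth in full, which the counts of members with 1 transcript did not. The share of false calls of either program in the real counts is therefore not known from it. Alternatives were DESeq2 1.42.0, other scalings, filters and groupings, a replicate block and leaving out each library. Fits of each transcript kind alone and of unscaled counts were added after seeing the data. Named were the core and paralogous subunits, the 3 members with the largest rise and fall in each comparison (mean of at least 100 counts) or else the 3 smallest p, and the 3 highest and lowest levels per kilobase in each complex. Values of a core subunit gene that this rule names are not reported here. Members named in counts of rises were added after their values were seen. Promoters came from RefSeq (GRCm38.p6) and exon overlaps from GENCODE vM21. Values after ± are the SD between libraries for levels. For log2 fold changes they are an SE from the fit, which includes the spread between libraries. The floor on counts covers counting error only.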

Additional observations from a re-analysis of the deposited data

How the results depend on the processing

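Direction and side of the threshold held for 1019 of the values of 79 pairs of a named gene and comparison. Of the rest, 182 were no longer past the threshold, 16 newly passed it and 7 reversed, all in contrasts without a called member. These were Ndufv1 (0.04) and Ndufb10 (0.07) in 5FU-1 day 21 against PBS-1 day 6 and Ndufv1 (-0.11), Atp5a1 (-0.17) and Atp5b (-0.14) in the day 21 interaction, all with counts not scaled, and Cox6b2 (0.07) and Ndufb4 (0.03) in old with PBS-1 day 6 as control. Unscaled counts, which hold depth differences, moved the counts of called members to 20 (main 33) in 5FU-1 day 6 against PBS-1 day 6, to 3 (1 with 1 transcript and 2 with more; main 57) in 5FU-1 day 21 against day 6, and to 47 (22 and 25; main 16) in 5FU-3 day 21 against day 6. Of members with 1 transcript 1 was then called in 5FU-1 day 6. The median log2 fold changes with unscaled counts were 0.23 in 5FU-3 day 6, -0.14 and -0.45 in day 21 against day 6 after 1 and 3 doses, 0.20 and -0.21 in day 21 against PBS, -0.09 in old, 0.28 in PBS-3 against PBS-1, and -0.09 and -0.39 in the interactions at day 6 and day 21. Genes with 1 transcript fitted alone gave 23 (main 11), 2 (main 0) and 4 (main 1) calls in 5FU-1 day 6, 5FU-3 day 6 and 5FU-3 day 21 against day 6. Library size without factor gave 9 (main 15) in 5FU-3 day 6, with medians of 0.01 there and -0.04 in 5FU-3 day 21 against day 6, and sums of 255 and 2049 CPM for complexes II and V in PBS-1 day 6 (main 247 and 1987). A fit of all 21 libraries gave 25 (main 16) in 5FU-3 day 21 against day 6 and 1 against PBS-3. DESeq2, which gave more false calls in simulated data, called 1, 1, 5, 4 and 1 members, against 0 in edgeR, in 5FU-1 day 21 against PBS-1, 5FU-3 day 21 against PBS-3, PBS-3 against PBS-1 and the 2 interactions. With PBS-1 as control old had 1. In the day 6 interaction RLE factors, no factor, a minimum of 10 counts and genes with 2 or more transcripts fitted alone gave 1 each. The cause was not tested. The share of all genes called under each of these settings is not given here.

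Leaving out 1 library gave 22 to 28 calls in 5FU-1 day 6 (main 33), 8 to 12 in 5FU-3 day 6, 23 to 57 in 5FU-1 day 21 against day 6, 9 to 18 in 5FU-3 day 21 against day 6, 0 to 1 in the day 6 interaction (1 without 5FU-1 day 6 replicate 1 and without 5FU-3 day 6 replicate 2) and 0 in all others. Replicate numbers did not pair the libraries, since same-numbered libraries correlated by -0.06 to 0.0526 in their deviations from group means. With a replicate block the counts were 25, 10, 47 and 16 for the first 4 contrasts and 0 for the others. Members under 100 counts on average (7 of 86) are limited by depth, and counts of those with 1 transcript did not follow it in full.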
